A study of Homo sapiens with 61 samples.

Results

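Human neurons carrying a guide RNA (gRNA) against ATF2 were compared with neurons carrying a gRNA against JUN, both without the drug of the study. The comparison holds 10 of the 61 samples of the series, the 5 libraries labelled ATF2 gRNA untreated and the 5 labelled JUN gRNA untreated, and covers all 20759 genes that passed a filter on low counts. The cells came from WTC11, an induced pluripotent line that is established and of human origin, and were turned into i3Neurons, which are neurons made by driving the transcription factor NGN2 and are labelled cortical. Both groups carried the CRISPR interference machinery, a Cas9 without cutting activity that silences a promoter, and received their gRNA by lentivirus. On day 14 they received the vehicle DMSO, and RNA was taken 16 hours later. Libraries treated the same way with a scrambled gRNA (Control gRNA untreated, 5) give the reference level of each gene, and libraries of both gRNAs after 5 nM vincristine, a drug that destabilises microtubules (ATF2 gRNA, 4, and JUN gRNA, 5), give the same contrast in other libraries. All lines descend from 1 stem cell line, guide sequences and the number of guides per target are not given in the sources used here, and nothing in the labels says that the libraries of a group were separate cultures, so p-values measure the spread between these libraries, which may be technical.

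ATF2 is a transcription factor of the bZIP family that binds DNA as a dimer, with itself or with a partner such as JUN. The kinases JNK and p38 phosphorylate it in stressed cells. JUN is the best known subunit of AP-1, the dimer of JUN and FOS family proteins, and its own promoter is a known target of ATF2 and JUN dimers. In neurons, JUN is known for its part in the response to axon injury and in neuronal death, while the roles of ATF2 in resting neurons are less often described. The comparison asks which genes differ between a line without ATF2 and a line without JUN, since JUN is also reduced when ATF2 is silenced.

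Total counts ran from 43.0 to 65.5 M per ATF2 gRNA library, from 51.6 to 87.3 M per JUN gRNA library and from 38.9 to 70.9 M per Control gRNA library. Levels are in CPM, counts scaled to a common library size with TMM factors. They are compared between groups for 1 gene, not between genes. On the main axis of variation of the 15 untreated libraries (30.4% of the variance), ATF2 gRNA libraries lay between -88.9 and -58.83, JUN gRNA libraries between 20.76 and 28.92 and Control gRNA libraries between 32.29 and 70.56. ATF2 gRNA replicate 1 and Control gRNA replicate 2 stood apart from their groups on the next axis (15.4%). In 30 pairs of replicates, the counts of each pair differed by more than sampling noise. The summed level of 10 neuron markers was 4962 to 5412 CPM per ATF2 gRNA library, 6369 to 6978 per JUN gRNA library and 6322 to 6916 per Control gRNA library. Of these 10 markers, 8 were called lower and 2 higher with ATF2 gRNA than with JUN gRNA (median log2 fold change -0.20). Of all genes tested 18.2% were called lower and 16.5% higher, shares that also belong beside the other marker counts. The 2 higher neuron markers (20.0%) are near the latter share. The 10 pluripotency markers summed to 181 to 213 CPM per ATF2 gRNA library, 156 to 169 per JUN gRNA library and 123 to 145 per Control gRNA library. Of the 7 tested, 4 were called higher with ATF2 gRNA (LIN28A, LIN28B, DPPA4 and SALL4) and 0 lower, while NANOG, TDGF1 and ZFP42 were at 0 counts in all 10 libraries. Microglia markers summed to at most 0.494 CPM, with AIF1 and TYROBP at 0 counts and 1 of 2 tested markers (PTPRC) called higher. The part of such cells in the results was not tested.

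Both targeted genes were reduced in their own line, but JUN was not equally low in the 2 lines. ATF2 (ENSG00000115966.16, GRCh38 chromosome 2, 175072250 to 175168382) measured 0.408, 0.877, 0.531, 0.707 and 0.106 CPM in ATF2 gRNA replicates 1 to 5 and 154, 150, 144, 166 and 151 CPM in JUN gRNA replicates 1 to 5. JUN (ENSG00000177606.6, chromosome 1, 58780788 to 58784327) measured 19.6, 22.1, 18.2, 22.5 and 22.5 CPM in ATF2 gRNA libraries and 2.93, 2.73, 2.24, 2.98 and 3.47 CPM in JUN gRNA libraries. Neither gene overlapped between the groups. Against the Control gRNA mean of 129 CPM for ATF2 and 88.5 CPM for JUN, ATF2 was left at 0.409% with its own gRNA, and JUN was left at 23.7% with ATF2 gRNA and at 3.24% with JUN gRNA. JUN was therefore 7.39-fold higher in the ATF2 gRNA line than in the JUN gRNA line (log2 fold change 2.89 ± 0.12, SE; edgeR adjusted p = 1.76e-17), so the contrast sets a line with no more than a trace of ATF2 and a remainder of JUN against a line with ATF2 and still less JUN. ATF2 differed by a log2 fold change of -8.13 ± 0.20 (edgeR adjusted p = 2.13e-21).

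CRISPR interference can also act on genes that start close to the targeted promoter. ATP5MC3 (ENSG00000154518.9, chromosome 2, 175176258 to 175184607), a subunit of the mitochondrial ATP synthase, starts 16.2 kb from ATF2. It measured 74.9, 70.5, 71.6, 71.0 and 69.1 CPM with ATF2 gRNA and 202, 181, 202, 186 and 184 CPM with JUN gRNA, without overlap. Its log2 fold change was -1.42 ± 0.04 (SE, edgeR adjusted p = 7.10e-31), and its Control gRNA mean was 198 CPM. The antisense gene AC096649.1, which overlaps ATF2 by 479 bases, had 0 counts in all 5 ATF2 gRNA libraries and 3 to 12 in JUN gRNA libraries. Since the strand setting of the counting is not given in the sources used here, its reads cannot be told apart from those of ATF2. Near JUN, MYSM1, a histone H2A deubiquitinase that starts 84.2 kb away, had a log2 fold change of -0.30 ± 0.11 (edgeR adjusted p = 0.0468), a call lost when ATF2 gRNA replicate 1 was left out and in 10 other alternatives. The part of ATP5MC3 in the results below was not tested.

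Across all genes, 7215 of 20759 (34.8%) were called at an adjusted p under 0.05, with 3432 (16.5%) higher and 3783 (18.2%) lower with ATF2 gRNA than with JUN gRNA. Among called genes the median size of the log2 fold change was 0.41. Differences of at least 2-fold were found for 1441 genes (6.94%), 965 of them higher (4.65%) and 476 lower (2.29%). Without ATF2 gRNA replicate 1 these were 6968 and 1403. Against Control gRNA, 8281 genes (39.9%) were called with ATF2 gRNA, 19.7% higher, 20.2% lower and 8.56% at least 2-fold apart. With JUN gRNA 2332 (11.2%) were called, 5.78% higher, 5.46% lower and 1.07% at least 2-fold apart. These comparisons share libraries with the main one, so only their values for named genes and their counts and medians for some lists are set beside it.

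**Figure D1:**
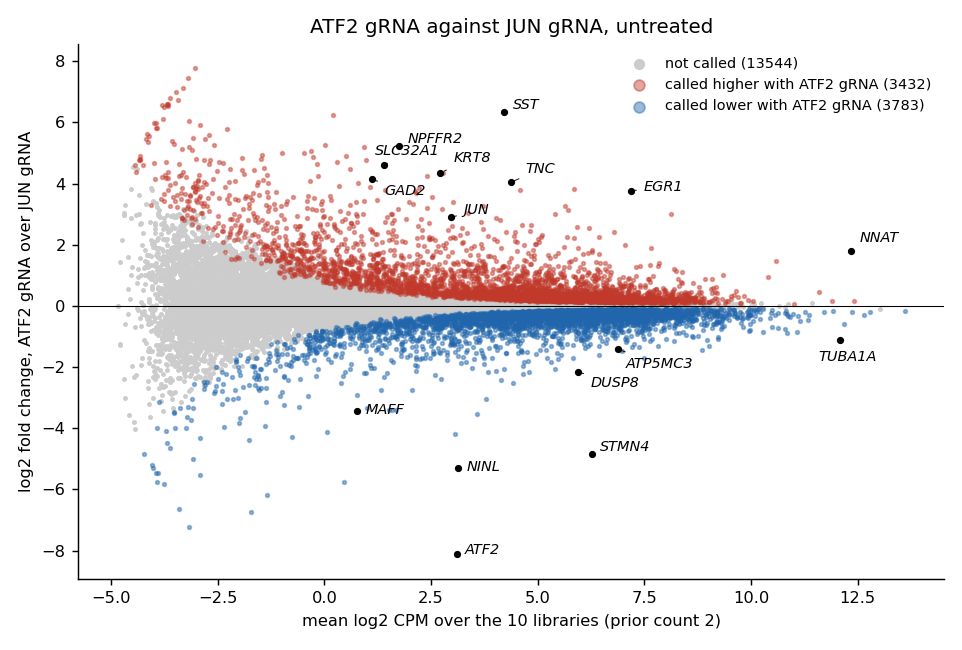
Each point is a gene, placed by its mean log2 CPM over the 10 libraries (prior count 2) and its log2 fold change (ATF2 gRNA over JUN gRNA, untreated); red and blue mark the 3432 genes called higher and the 3783 called lower. SST lies at 6.33 and ATF2 at -8.13, and TUBA1A and NNAT are among the most abundant genes at least 2-fold apart.

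The genes named by size are the protein-coding genes furthest apart among those called, with libraries that did not overlap and a mean log2 CPM of at least 1. SST (ENSG00000157005.3, chromosome 3, 187668906 to 187670399), which encodes the neuropeptide somatostatin, measured 184, 171, 146, 165 and 161 CPM with ATF2 gRNA and 2.32, 1.69, 1.92, 1.65 and 2.82 CPM with JUN gRNA. The Control gRNA libraries were as low as JUN gRNA libraries, at 1.18 ± 0.220 CPM (SD, n = 5). SST had the highest log2 fold change among the genes named by size, 6.33 ± 0.16 (SE, edgeR adjusted p = 5.46e-22).

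The next highest were NPFFR2 at a log2 fold change of 5.23, a receptor for neuropeptide FF; SLC32A1 at 4.59, the vesicular transporter of GABA and glycine; and KRT8 at 4.35, a keratin of simple epithelia. They were followed by PPL (4.33, periplakin), BOC (4.25, a co-receptor for hedgehog ligands), GAD2 (4.14, an enzyme that makes GABA), TNC (4.04, the matrix protein tenascin C), SLC30A3 (3.87, a zinc transporter of synaptic vesicles), HEYL (3.85, a repressor induced by Notch), RGS4 (3.83, a regulator of G protein signalling) and GSG1 (3.80). In these 12 genes the ATF2 gRNA and JUN gRNA libraries did not overlap, which was required by the rule that named them and held for 27.9% of all genes. Their edgeR adjusted p ran from 9.17e-36 for RGS4 to 1.32e-11 for SLC32A1.

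The Control gRNA level placed these 12 genes differently. RGS4 was at 217 ± 14.5 CPM with ATF2 gRNA, 15.3 ± 0.838 with JUN gRNA and 15.7 ± 1.76 with Control gRNA (SD, n = 5 each), and of the 2 lines only ATF2 gRNA was called against Control gRNA. TNC was at 76.7, 79.3, 87.1, 95.8 and 87.7 CPM with ATF2 gRNA, at 4.84, 4.15, 7.27, 5.11 and 4.13 CPM with JUN gRNA and at 63.8 ± 2.91 CPM with Control gRNA. Here it was the JUN gRNA line that fell below Control gRNA, by 3.62 on the log2 scale (edgeR adjusted p = 1.04e-17), while ATF2 gRNA was 0.42 above it (edgeR adjusted p = 0.00134). NPFFR2 moved in both lines, with means of 21.4 CPM for ATF2 gRNA, 0.545 for JUN gRNA and 5.54 for Control gRNA. PPL was likewise above its Control gRNA mean of 4.52 CPM with ATF2 gRNA (30.7) and below it with JUN gRNA (1.54).

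KRT8 belongs to the list of epithelial and endothelial markers. Its mean was 29.7 CPM with ATF2 gRNA, 1.47 with JUN gRNA and 2.99 with Control gRNA, and the sum of that list was 29.7 to 32.7 CPM per ATF2 gRNA library, 1.31 to 2.63 per JUN gRNA library and 3.11 to 5.26 per Control gRNA library. Of the 8 listed genes 5 were tested, 2 of them were called, both higher, and CLDN5 was at 0 in all 10 libraries. KRT18, the usual partner of KRT8 in epithelia, was at 0.318 and 0.278 CPM. The part of other cells in this result was not tested.

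On the lower side, after ATF2 itself, NINL, a ninein-like protein of the centrosome, had the lowest log2 fold change among the genes named by size, at -5.29 ± 0.08 (SE, edgeR adjusted p = 7.03e-42). It measured 0.953, 1.49, 1.56, 1.55 and 1.33 CPM with ATF2 gRNA and 55.7, 55.0, 52.6, 55.3 and 54.9 CPM with JUN gRNA, and its Control gRNA mean was 57.8 CPM. STMN4, a stathmin of neurons that binds tubulin, measured 13.5, 15.4, 12.9, 15.6 and 13.8 CPM against 418, 434, 391, 404 and 424 CPM. Its log2 fold change was -4.86 ± 0.09 (edgeR adjusted p = 3.66e-25), and the Control gRNA mean of 390 CPM was close to that of JUN gRNA.

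The other 9 genes on this side were CNGA3 at a log2 fold change of -3.54 (a cyclic nucleotide-gated channel), PPP1R1B at -3.42 (DARPP-32, an inhibitor of protein phosphatase 1), CYGB at -3.40 (cytoglobin), TBX5 at -3.40 (a T-box factor), NTNG2 at -3.03 (netrin G2), CLDN6 at -2.77 (a claudin), OTX2 at -2.53 (a homeobox factor of the forebrain and midbrain), SH2D3C at -2.42 and SLC24A2 at -2.39 (a sodium, calcium and potassium exchanger). TBX5 was the reverse case of TNC, with means of 0.975 CPM for ATF2 gRNA, 10.3 for JUN gRNA and 1.75 for Control gRNA. JUN gRNA was thus above Control gRNA by a log2 fold change of 2.53 (edgeR adjusted p = 1.98e-12). OTX2 was at 8.99 CPM with ATF2 gRNA, 51.8 with JUN gRNA and 35.3 with Control gRNA. CLDN6 overlaps TNFRSF12A by 1627 bases on the opposite strand, so reads in that stretch cannot be assigned without the strand setting.

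Among genes of high abundance, NNAT, an imprinted gene that encodes the membrane protein neuronatin, measured 10340, 9298, 9036, 9381 and 9772 CPM with ATF2 gRNA and 2713, 2848, 2776, 2649 and 2931 CPM with JUN gRNA. The difference was a log2 fold change of 1.78 ± 0.03 (SE, edgeR adjusted p = 2.75e-35), with Control gRNA at 2270 CPM. ASS1, an enzyme of arginine synthesis, followed at 1.46, TP53I11 at 1.02, IMPAD1 at 1.11, SHMT2, a mitochondrial enzyme of serine and glycine metabolism, at 1.14 and the orphan receptor GPR50 at 3.00. GPR50 was above its Control gRNA mean of 30.3 CPM in both lines, at 794 ± 15.4 CPM with ATF2 gRNA and 91.0 to 107 CPM with JUN gRNA (SD, n = 5, and range). The abundant genes that were lower included TUBA1A and TUBB2B, described with the tubulins, the adhesion molecule L1CAM at -1.01, the secreted OLFM1 at -1.32, NDRG4 at -1.11 and SEZ6L at -1.44. Each of these 12 genes had an edgeR adjusted p of 5.82e-18 or less.

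AP-1 is built from JUN and FOS family proteins, and MAF and ATF proteins can join such dimers. Of 12 tested AP-1 and related factors, 7 were higher with ATF2 gRNA and 3 lower, against 16.5% and 18.2% of all genes, and their median log2 fold change was 0.83 where that of all genes was 0.007. JUN, silenced in the comparison line, is 1 of the 7. The shares of 16.5% higher and 18.2% lower are those to set beside every list count of this untreated contrast below. For list counts against Control gRNA the shares of all genes are 19.7% higher and 20.2% lower with ATF2 gRNA. With JUN gRNA they are 5.78% and 5.46%. For list counts with vincristine they are 14.0% and 18.7%. JUNB, a JUN family member, measured 18.9, 22.2, 19.7, 23.3 and 21.9 CPM with ATF2 gRNA and 7.48, 8.62, 7.29, 7.57 and 8.24 CPM with JUN gRNA, with Control gRNA at 8.09 CPM. JUNB was higher by a log2 fold change of 1.44 ± 0.11 (edgeR adjusted p = 1.82e-15) and did not overlap. FOSL2, a FOS family member, was higher by 2.02 ± 0.23 (edgeR adjusted p = 1.71e-09), at 2.88 CPM against 0.699 and 1.70 for Control gRNA.

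JUND and MAFF moved the other way. JUND was at 54.2 ± 4.57 CPM with ATF2 gRNA, 90.2 ± 2.66 with JUN gRNA and 77.7 ± 6.05 with Control gRNA (SD, n = 5), a log2 fold change of -0.74 (edgeR adjusted p = 2.16e-13). MAFF, a small MAF protein, measured 0.295, 0.362, 0.659, 0.767 and 0.443 CPM with ATF2 gRNA and 5.38, 5.04, 5.93, 4.73 and 6.75 CPM with JUN gRNA, and the Control gRNA mean of 2.73 CPM lay between them. Its log2 fold change was -3.43 ± 0.20 (edgeR adjusted p = 5.96e-19), the lowest of the AP-1 list. BATF3 was called higher (2.45 ± 0.95, edgeR adjusted p = 0.0406) at 0.418 and 0.0739 CPM, and lost the call in 8 of 16 alternatives.

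The closest relatives of ATF2 are ATF7 and CREB5, which share its DNA-binding domain. Neither was higher in the line without ATF2. ATF7 was at 31.1 ± 2.72 CPM with ATF2 gRNA and 37.9 ± 2.02 with JUN gRNA (log2 fold change -0.28, edgeR adjusted p = 0.00108). CREB5 measured 4.99, 5.18, 5.12, 5.51 and 6.42 CPM with ATF2 gRNA and 20.0, 25.0, 18.5, 24.7 and 24.5 CPM with JUN gRNA, a log2 fold change of -2.05 ± 0.10 (edgeR adjusted p = 5.85e-19), and its Control gRNA mean was 28.4 CPM. In the list of 18 ATF and CREB factors, 6 were higher and 4 lower, with ATF2 among the latter and a median of 0.10. ATF5, a factor translated under stress, was higher by 2.59 (150 against 24.8 CPM), DDIT3 by 2.26 and CEBPB by 1.23, while CREB3L2 was lower by 0.70 on the log2 scale. ATF3 differed by 0.30 (edgeR adjusted p = 0.000479), at 25.4 and 20.6 CPM.

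**Figure D2:**
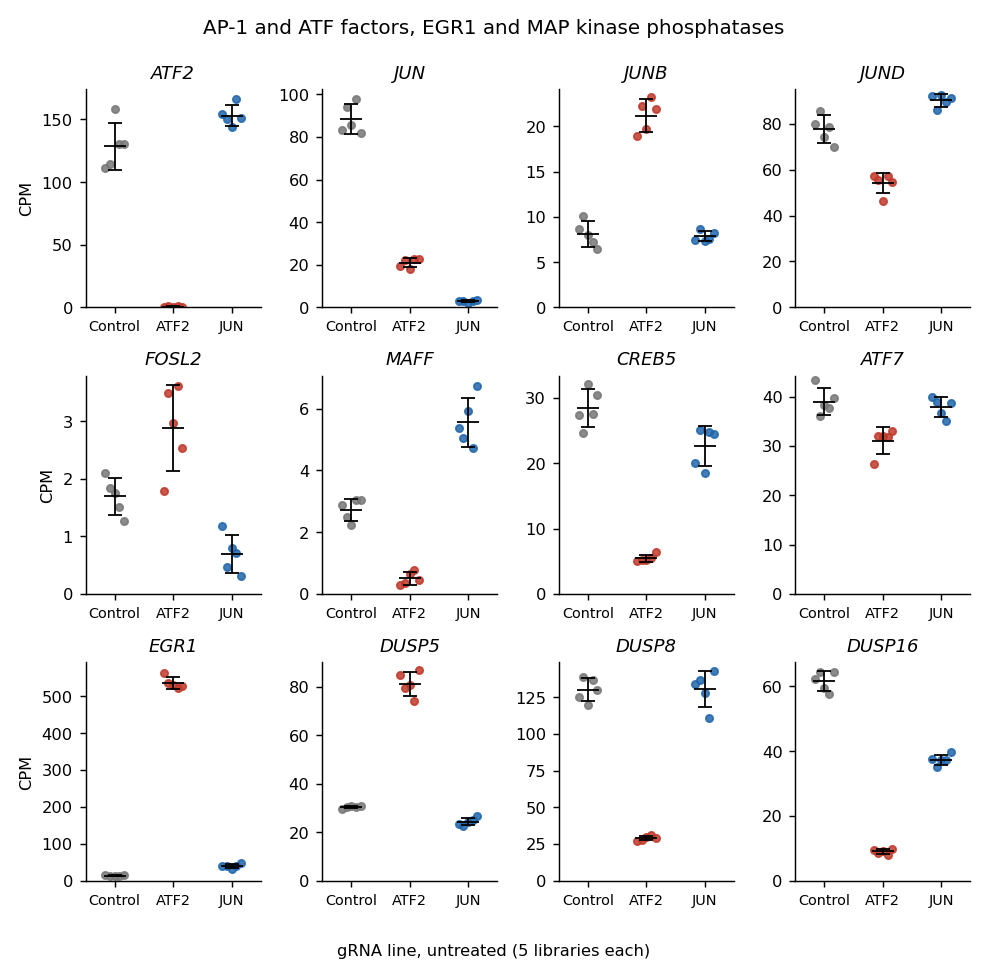
Level in CPM (linear axes from 0) of 12 genes in the 5 libraries of each untreated line; points are libraries, bars the mean and SD. JUN lies at 18.2 to 22.5 CPM with ATF2 gRNA and at 2.24 to 3.47 with JUN gRNA, EGR1 is high with ATF2 gRNA only, and DUSP8, DUSP16 and CREB5 are lowest there.

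The immediate early genes are transcribed within minutes of neuronal activity or growth factor signalling through ERK and calcium. Of 21 tested members, 13 were higher with ATF2 gRNA (61.9%, against 16.5% of all genes) and 4 lower (19.0%, near the 18.2% of all genes), with a median of 0.62. EGR1, a zinc finger factor, measured 564, 535, 529, 522 and 528 CPM with ATF2 gRNA and 38.8, 40.4, 32.0, 39.6 and 46.7 CPM with JUN gRNA, a log2 fold change of 3.76 ± 0.10 (edgeR adjusted p = 2.37e-20). The Control gRNA mean was 13.9 CPM, so EGR1 was above Control gRNA in the JUN gRNA line too (edgeR adjusted p = 6.69e-11). Its relatives EGR2 and EGR3 were higher by 5.20 and 4.44 from low levels, 0.305 and 0.0579 CPM with JUN gRNA. KLF6 at -0.85 and BTG2 at -0.82 were lower. BDNF, the brain-derived neurotrophic factor, was at 16.0 ± 1.88 CPM with ATF2 gRNA, 1.72 ± 0.250 with JUN gRNA and 1.66 ± 0.175 with Control gRNA (log2 fold change 3.21, edgeR adjusted p = 5.21e-25).

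MAP kinase phosphatases switch off ERK, p38 and JNK, and they held large differences in both directions. Of 14 tested, 5 were higher and 5 lower (median 0.00). The members called higher included DUSP5 and DUSP6, which act on ERK, and those called lower included DUSP8 and DUSP16, which act on JNK and p38. DUSP2 (2.39), DUSP7 (0.77) and DUSP14 (0.68) were also higher, and DUSP3 (-0.36) and DUSP22 (-0.21) also lower. DUSP4 (0.01), DUSP9 (0.83), DUSP10 (-0.03) and DUSP26 (-0.01) were not called. A split of the list by target kinase was not tested. DUSP8 measured 27.2, 28.0, 29.7, 31.3 and 29.2 CPM with ATF2 gRNA and 134, 137, 128, 111 and 143 CPM with JUN gRNA, a log2 fold change of -2.16 ± 0.08 (edgeR adjusted p = 1.23e-20), with Control gRNA at 130 CPM. An antisense gene that overlaps DUSP8 by 568 bases, KRTAP5-AS1, was also lower (1.95 against 36.2 CPM, log2 fold change -4.19, edgeR adjusted p = 6.17e-34). Without the strand setting, reads in the stretch that it shares with DUSP8 cannot be assigned to either gene. DUSP16 measured 9.46, 8.54, 9.19, 8.06 and 9.88 CPM against 37.4, 35.0, 37.3, 37.2 and 39.6 CPM, a log2 fold change of -2.05 (edgeR adjusted p = 2.27e-23). It was below its Control gRNA mean of 61.6 CPM in both lines. DUSP5 was at 81.1 ± 5.02 CPM with ATF2 gRNA and 24.4 ± 1.53 with JUN gRNA (1.74, edgeR adjusted p = 5.82e-27), DUSP6 was higher by 0.96, and DUSP1, which acts on all 3 kinase families, was lower at -0.48.

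Other parts of the MAP kinase pathway were read from 2 further lists. Of 20 kinases and scaffolds of the JNK and p38 branches, 10 were lower and 2 higher (median -0.13), with MAPK11, a p38 kinase, lowest at -0.95 and DLK (MAP3K12) at -0.42. LZK (MAP3K13) was at 28.3 and 29.5 CPM and was not called (-0.06, edgeR adjusted p = 0.534). Of 14 outputs and feedback regulators of ERK signalling, 5 were higher and 5 lower. PHLDA1 was at 265 ± 9.89 CPM against 66.4 ± 4.76 (2.00, edgeR adjusted p = 6.61e-34) and the ETS factor ETV1 was higher by 1.41, while ETV5 was lower at -1.34.

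Promoters are shown for genes that bear on ATF2 and AP-1. JUN is the gene whose promoter holds the known sites of ATF2 and JUN dimers, DUSP8 and MAFF were among the lowest phosphatase and AP-1 genes, and SST is the highest of the genes named by size and a textbook target of CREB. The sequences come from RefSeq (GRCh38.p14) and hold the 250 bases before the annotated start, 5′ to 3′ on the gene's strand, from chr1:58784048-58784297 (minus strand) for JUN, chr11:1572272-1572521 (minus strand) for DUSP8, chr22:38201744-38201993 (plus strand) for MAFF and chr3:187670395-187670644 (minus strand) for SST. RefSeq starts JUN further downstream than the GENCODE span printed above, so this window lies within that span. Capitals mark matches to the motifs given after them.
JUN: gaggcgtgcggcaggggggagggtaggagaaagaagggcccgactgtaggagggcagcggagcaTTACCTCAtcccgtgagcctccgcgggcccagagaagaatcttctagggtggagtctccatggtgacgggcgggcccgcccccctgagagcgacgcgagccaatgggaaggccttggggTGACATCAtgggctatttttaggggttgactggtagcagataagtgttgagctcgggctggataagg
DUSP8: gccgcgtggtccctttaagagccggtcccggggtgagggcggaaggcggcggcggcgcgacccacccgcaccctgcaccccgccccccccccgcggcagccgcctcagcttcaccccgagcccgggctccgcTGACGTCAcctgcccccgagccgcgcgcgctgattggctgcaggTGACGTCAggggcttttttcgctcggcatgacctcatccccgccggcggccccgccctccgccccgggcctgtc
MAFF: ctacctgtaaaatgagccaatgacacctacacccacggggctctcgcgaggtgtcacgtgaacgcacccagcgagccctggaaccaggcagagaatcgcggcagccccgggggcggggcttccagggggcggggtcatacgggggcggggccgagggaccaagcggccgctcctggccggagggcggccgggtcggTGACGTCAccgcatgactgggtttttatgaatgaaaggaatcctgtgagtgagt
SST: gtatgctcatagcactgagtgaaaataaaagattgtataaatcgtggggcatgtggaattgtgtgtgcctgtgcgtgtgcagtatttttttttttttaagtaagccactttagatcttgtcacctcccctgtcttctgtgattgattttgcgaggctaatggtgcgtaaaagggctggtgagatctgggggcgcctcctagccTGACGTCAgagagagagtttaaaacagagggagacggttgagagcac

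The motifs searched, on both strands, were the cAMP response element TGACGTCA, which is its own complement, the AP-1 site TGAGTCA (complement TGACTCA), and the variants TGACATCA (complement TGATGTCA) and TTACCTCA (complement TGAGGTAA) of the JUN promoter; none of them contains another. JUN held TTACCTCA from 186 to 179 bases before the start and TGACATCA from 67 to 60, and no full cAMP response element in these 250 bases. DUSP8 held 2 cAMP response elements, starting 118 and 74 bases before the start, MAFF held 1 starting at 54, and SST held 1 starting at 47. SST was high and DUSP8 and MAFF were low in the same line, so the genes with this element in the set shown did not share a direction.

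Of the genes tested, 12371 of 20759 (59.6%) were matched by symbol to a promoter of 300 bases, which also takes in 50 bases after the start. The cAMP response element was present in 3.06% of them. The share was 4.27% (121 of 2836; exact 95% binomial interval 3.55% to 5.08%) among genes lower with ATF2 gRNA and 2.52% (61 of 2417; 1.94% to 3.23%) among those higher. Among genes at least 2-fold apart it was 6.10% (18 of 295; 3.66% to 9.47%) for lower and 1.71% (10 of 586; 0.821% to 3.12%) for higher. The AP-1 site was present in 3.12% of all promoters, in 3.68% of those of higher genes and in 2.72% of those of lower genes, and in 5.80% and 4.75% of those at least 2-fold apart. TGACATCA was present in 1.64% of all promoters, 1.45% of higher and 2.29% of lower genes. TTACCTCA was present in 0.590%, 0.662% and 0.599%. These shares describe the letters in the windows, and intervals cover counting error only. Of the 24 genes named by size, 16 had a promoter in the table; SST and CLDN6 held a cAMP response element and BOC an AP-1 site.

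GABA is made by GAD1 and GAD2 and loaded into vesicles by SLC32A1, whereas NGN2 neurons are known as glutamatergic cells that load glutamate with SLC17A6 and SLC17A7. All 3 genes of the GABA pathway were higher with ATF2 gRNA, from means under 1 CPM in both other lines. SLC32A1 measured 14.2, 11.0, 11.2, 14.0 and 13.1 CPM with ATF2 gRNA and 0.517, 0.530, 0.727, 0.349 and 0.476 CPM with JUN gRNA (4.59 ± 0.36, edgeR adjusted p = 1.32e-11). GAD2 measured 9.96, 9.07, 7.87, 8.69 and 8.81 CPM against 0.329, 0.644, 0.512, 0.611 and 0.417 CPM (4.14 ± 0.26, edgeR adjusted p = 4.97e-18), and GAD1 was at 2.73 ± 0.448 against 0.361 ± 0.184 CPM (2.90, edgeR adjusted p = 0.000205). The glutamate transporters were not lower: SLC17A6 was at 300 ± 23.3 against 198 ± 13.3 CPM (0.59, edgeR adjusted p = 1.10e-13), and SLC17A7 differed by 0.23. Among 13 transmitter genes, 6 were higher and 3 lower, and the vesicular monoamine transporter SLC18A2 was among the lower at -1.07. In bulk RNA, more cells with a transcript and more transcript per cell cannot be told apart.

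Neuropeptides and granins are stored in dense core vesicles. Of 19 tested, 12 were higher and 3 lower (median 0.51). Besides SST, the neuropeptide galanin (GAL), which sensory neurons make after injury, measured 3.29, 3.74, 4.91, 4.99 and 4.35 CPM with ATF2 gRNA and 0.172, 0.0757, 0.107, 0.0874 and 0.298 CPM with JUN gRNA. With Control gRNA at 2.31 CPM, the JUN gRNA line was far below and the ATF2 gRNA line above that level (log2 fold changes -3.99 and 0.89, edgeR adjusted p = 6.27e-15 and 0.000864). The vesicle proteins SCG3 and CHGA were lower, SCG3 at 125 ± 6.14 against 249 ± 9.72 CPM and CHGA at a log2 fold change of -0.77.

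Receptors and channels were changed in both directions. Of 41 receptor subunits for glutamate, GABA, glycine and acetylcholine, 18 were higher and 13 lower. The GABA-A receptor subunits GABRG3 and GABRB2 were among the higher, by 2.85 and 2.60, and GABRG3 was at 12.8 ± 0.947 against 1.77 ± 0.292 CPM. GABRB2 was at 0.340 CPM in ATF2 gRNA replicate 1 and at 1.78 to 2.09 in the others. CHRNA4, a nicotinic subunit, and GRIN2A, an NMDA receptor subunit, were lower, at -1.70 and -1.51. Of 43 voltage-gated channels 17 were lower and 10 higher (median -0.22), with the calcium channel CACNA1E at 24.2 ± 2.97 against 81.3 ± 4.74 CPM (-1.75, edgeR adjusted p = 7.38e-18). The potassium channel KCNA1 was higher at 2.58 against 0.0809 CPM (4.98, edgeR adjusted p = 6.36e-12).

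Synaptic vesicle and release genes were mostly lower. Of 34 tested, 23 were lower (67.6%, against 18.2% of all genes) and 3 higher (8.82%, against 16.5%), with a median of -0.23. SYN3, a synapsin, was lower at -1.54 and the RAB3 effector RPH3A at -0.87, while the complexin CPLX2 was at 1853 ± 80.7 against 969 ± 41.0 CPM (0.94, edgeR adjusted p = 2.28e-27) and the vesicle protein SV2C was higher by 1.51. RPH3A was another gene at which the JUN gRNA mean lay away from the Control gRNA mean, at 55.9 CPM with ATF2 gRNA, 58.3 with Control gRNA and 102 with JUN gRNA. SYN1 was at 58.6 and 64.1 CPM, and its call (-0.13, edgeR adjusted p = 0.0368) was lost in 11 of 18 alternatives.

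**Figure D3:**
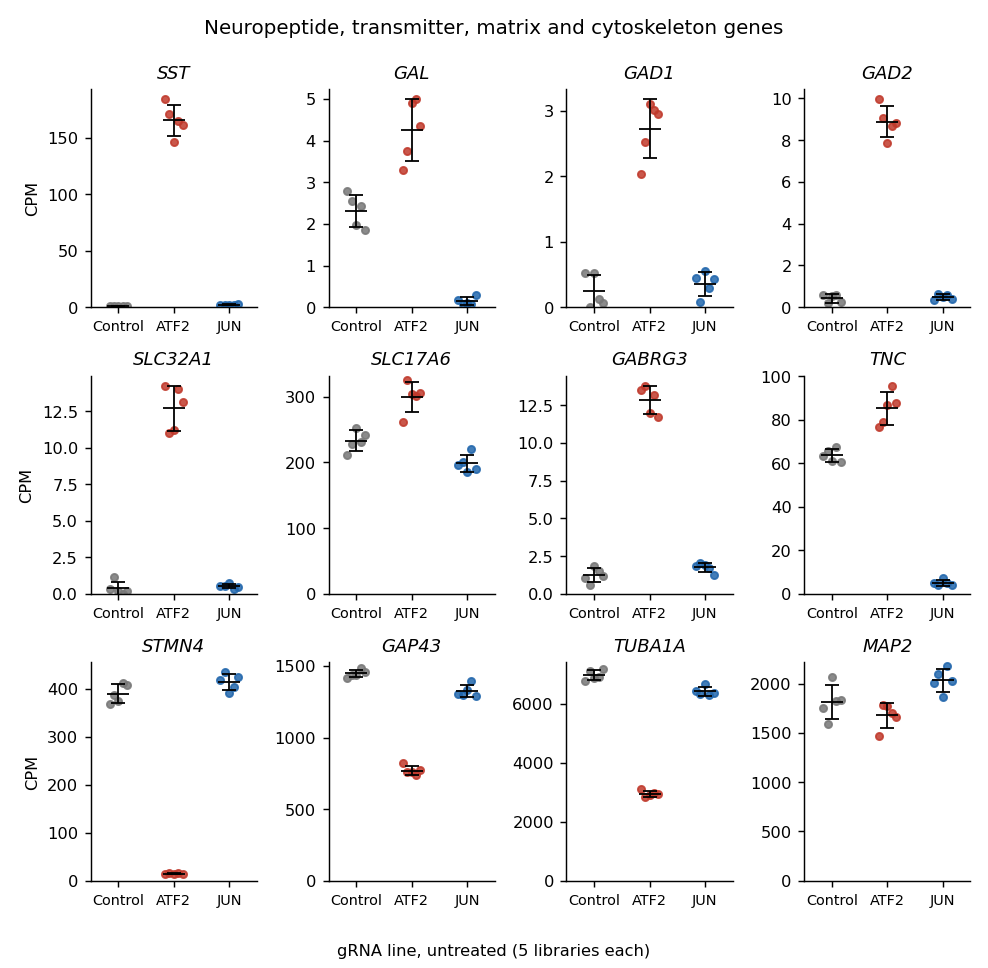
Level in CPM (linear axes from 0) of 12 neuronal genes in the 5 libraries of each untreated line; points are libraries, bars the mean and SD. SST, GAD1, GAD2 and SLC32A1 are near 0 in both other lines, GABRG3 is at 1.77 CPM with JUN gRNA and 1.25 with Control gRNA, TNC and GAL are near 0 with JUN gRNA only, and STMN4, GAP43 and TUBA1A are lowest with ATF2 gRNA.

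Tubulins, stathmins and microtubule-associated proteins build and regulate the microtubules of axons. Of 18 stathmins and tubulins, 13 were lower and 2 higher (median -0.48). TUBA1A, the main alpha-tubulin of growing neurons, measured 3103, 2822, 2898, 2969 and 2931 CPM with ATF2 gRNA and 6422, 6326, 6660, 6275 and 6355 CPM with JUN gRNA, a log2 fold change of -1.12 ± 0.05 (edgeR adjusted p = 2.00e-18), with Control gRNA at 6967 CPM. TUBB2B was at 409 ± 20.2 against 874 ± 23.2 CPM (-1.09, edgeR adjusted p = 4.56e-20). Both have near-identical paralogs, between which reads could be split. The exceptions were TUBA4A, higher by 0.80, and TUBB6, higher by 0.75. STMN2 was lower at -0.76 and STMN1 at -0.36.

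The 18 microtubule-associated proteins and neurofilaments were lower in 15 cases and higher in 2 (median -0.41). MAP6 and DPYSL3 were lower at -0.79 and -0.86, and MAP2, the dendrite marker, at -0.28 (1678 ± 125 against 2034 ± 118 CPM). The 2 higher members were the intermediate filament genes VIM at 1.48 and NEFM at 0.15. VIM is also a progenitor marker; the summed progenitor markers were 771 to 846 CPM per ATF2 gRNA library, 971 to 1093 per JUN gRNA library and 1331 to 1424 per Control gRNA library. The members did not follow this sum, since 5 of 9 were called higher (PAX6, SOX1, SOX2, MKI67 and VIM), 2 lower (NES and FABP7), and the median log2 fold change was 0.91. The part of progenitors in these results was not tested.

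Genes known from axon injury and regrowth were split. Of 19 tested, 11 were higher and 7 lower (median 0.29). Against Control gRNA, 6 were higher and 8 lower with ATF2 gRNA (median -0.15), and 2 higher and 5 lower with JUN gRNA (median -0.06). Those higher with ATF2 gRNA than with JUN gRNA included GAL and TNFRSF12A, the receptor of TWEAK. TNFRSF12A was at 26.0 ± 1.15 against 2.48 ± 0.498 CPM (3.39, edgeR adjusted p = 1.01e-26). The growth-associated protein GAP43 measured 819, 756, 762, 736 and 771 CPM with ATF2 gRNA and 1301, 1298, 1331, 1392 and 1289 CPM with JUN gRNA (-0.78 ± 0.03, edgeR adjusted p = 1.66e-25), and its Control gRNA mean was 1447 CPM. SOX11 was higher by 0.27 with both lines below Control gRNA (50.2, 41.6 and 67.0 CPM). Among 14 axon degeneration genes 6 were lower and 0 higher, with the axon survival enzyme NMNAT2 at 250 ± 9.91 against 368 ± 10.4 CPM (-0.56, edgeR adjusted p = 1.22e-19) and the NAD-cleaving SARM1 at -0.15. For the 0 higher, NMNAT3 had the highest log2 fold change, 0.97, and was not called.

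BH3-only proteins start apoptosis by binding the BCL2 guardians. Of 8 tested, 5 were higher and 0 lower with ATF2 gRNA (median 0.45). Against Control gRNA, 3 were higher and 2 lower with ATF2 gRNA (median 0.01), and 0 higher and 2 lower with JUN gRNA (median -0.31). BCL2L11 (BIM) measured 16.6, 21.4, 20.3, 18.6 and 18.8 CPM with ATF2 gRNA and 9.81, 8.35, 8.42, 9.54 and 8.80 CPM with JUN gRNA (1.09 ± 0.09, edgeR adjusted p = 6.61e-14). The Control gRNA mean was 17.8 CPM, so the JUN gRNA line was the one below Control gRNA (-0.98, edgeR adjusted p = 1.78e-11). HRK, a BH3-only gene of neurons, was below its Control gRNA mean of 62.8 CPM in both lines, at 42.3 ± 2.10 and 35.3 ± 1.92 CPM (0.26, edgeR adjusted p = 6.14e-05). BBC3 (PUMA) was higher by 1.19 and BIK by 2.49. Of 7 guardians and effectors, 3 were higher and 1 lower: BCL2 was at 5.25 ± 0.823 against 11.8 ± 0.935 CPM (-1.17, edgeR adjusted p = 1.40e-10), while MCL1 and BCL2L1 were higher by 0.33 and 0.23.

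Stress pathways held a few members with large differences. Of 16 genes of the integrated stress response, which acts through translation of ATF4, 7 were higher and 2 lower (median 0.11). DDIT3 (CHOP) measured 130, 113, 106, 107 and 108 CPM with ATF2 gRNA and 23.4, 23.1, 26.1, 23.2 and 21.8 CPM with JUN gRNA (2.26 ± 0.07, edgeR adjusted p = 2.28e-27), TRIB3 was higher by 1.66 and SESN2 by 0.72. The ATF4 transcript was at 452 and 471 CPM and was not called (-0.06, edgeR adjusted p = 0.207). Of 17 p53 targets 6 were higher (35.3%, against 16.5% of all genes), 3 lower (17.6%, near the 18.2% of all genes) and 8 not called (median 0.10). CDKN1A (p21) was at 68.1 ± 3.30 against 15.0 ± 1.31 CPM (2.18, edgeR adjusted p = 5.00e-25), and MDM2, the feedback inhibitor of p53, was lower at -0.22. Of 17 ER chaperones 7 were higher and 2 lower, all within 0.35.

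Genes of cholesterol synthesis and uptake were mostly lower, 20 of 23, and 0 were higher (median -0.46). HMGCS1, an early enzyme of the pathway, measured 693, 729, 711, 703 and 710 CPM with ATF2 gRNA and 1222, 1062, 1173, 1195 and 1073 CPM with JUN gRNA (-0.69 ± 0.05, edgeR adjusted p = 7.03e-14), and its Control gRNA mean was 1046 CPM. MVD, LSS and the sterol sensor INSIG1 were lower at -0.87, -0.78 and -0.77. Of the 3 genes that were not called, CYP51A1 had the highest log2 fold change, 0.18. Glycolysis and hypoxia-linked genes were lower in 14 of 26 cases and higher in 3, with VEGFA higher by 1.12. The 13 mitochondrially encoded genes were lower in 12 cases (median -0.22), MT-ATP6 by 0.47 on the log2 scale, and mitochondrial transcripts took 5.07% to 5.73% of counts with ATF2 gRNA and 5.50% to 6.79% with JUN gRNA.

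Several lists hold ligands, receptors and adhesion molecules. In the TGF-beta and BMP pathway 13 of 23 genes were higher and 3 lower (median 0.81); the ligand TGFB1 was at 48.0 ± 2.55 against 9.80 ± 0.691 CPM (2.29, edgeR adjusted p = 6.09e-28). In the WNT and Notch pathway 12 of 31 were higher and 7 lower, with HEYL at 17.7 ± 1.23 against 1.21 ± 0.292 CPM and the WNT effector LEF1 lower at -1.59. Of 41 guidance genes 20 were higher and 14 lower, with the netrin receptor UNC5B higher by 2.24, the semaphorin SEMA3C at 43.2 ± 1.01 against 15.3 ± 1.31 CPM, and NTNG2 at 4.80 ± 0.916 against 39.6 ± 2.34 CPM. Of 25 cadherins and non-clustered protocadherins 15 were higher and 6 lower, led by CDH20 at 66.2 ± 5.02 against 12.0 ± 1.36 CPM (2.46, edgeR adjusted p = 6.72e-27), with PCDH8 lower at -1.15. Of 50 clustered protocadherins 3 were higher, 5 lower and 42 not called.

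The remaining lists were smaller or more mixed. Integrins, laminins and collagens were higher in 13 and lower in 6 of 37 cases, with the laminin LAMA4 higher by 3.45 at 3.66 against 0.331 CPM. The sum of 6 tested fibroblast markers was 3.42 to 4.21 CPM per ATF2 gRNA library and 0.713 to 1.45 per JUN gRNA library, DCN and LUM did not pass the filter, and their part was not tested. Of 20 neurotrophic factors and receptors 5 were higher and 5 lower, 25.0% each against 16.5% and 18.2% of all genes. Among 16 interferon and inflammation genes 6 were higher and 0 lower, among them IRF1 by 2.61. TNFAIP3 had the lowest log2 fold change, -0.84, and was not called. Against Control gRNA, 3 genes of this list were higher and 2 lower with ATF2 gRNA, and 0 higher and 5 lower with JUN gRNA. Of 29 ribosomal proteins 13 were higher and 1 lower. Against Control gRNA, 3 of the 29 were higher and 6 lower with ATF2 gRNA, and 0 higher and 17 lower with JUN gRNA. Of 21 replication and mitosis genes 4 were higher (19.0%, near the 16.5% of all genes) and 0 lower. The count of 4 fell to 2 without ATF2 gRNA replicate 2 or 4 or JUN gRNA replicate 5. Of 6 efflux pumps only ABCB1, the pump that carries vincristine, was called, at 7.11 ± 0.342 against 0.319 ± 0.142 CPM (4.48, edgeR adjusted p = 7.10e-14).

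Among 34 homeobox and other identity factors of neurons, 13 were higher and 11 lower. LHX1 was at 155 ± 4.86 against 48.2 ± 1.03 CPM (1.68, edgeR adjusted p = 7.10e-31) and LHX5 at 3.58 against 0.608 CPM (2.55, edgeR adjusted p = 7.03e-10). BCL11A, a zinc finger factor of cortical neurons, was lower at -1.21. Markers of peripheral neurons summed to 937 to 1005 CPM with ATF2 gRNA and 902 to 935 with JUN gRNA; 1 of 8 tested was higher and 4 were lower.

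**Figure D4:**
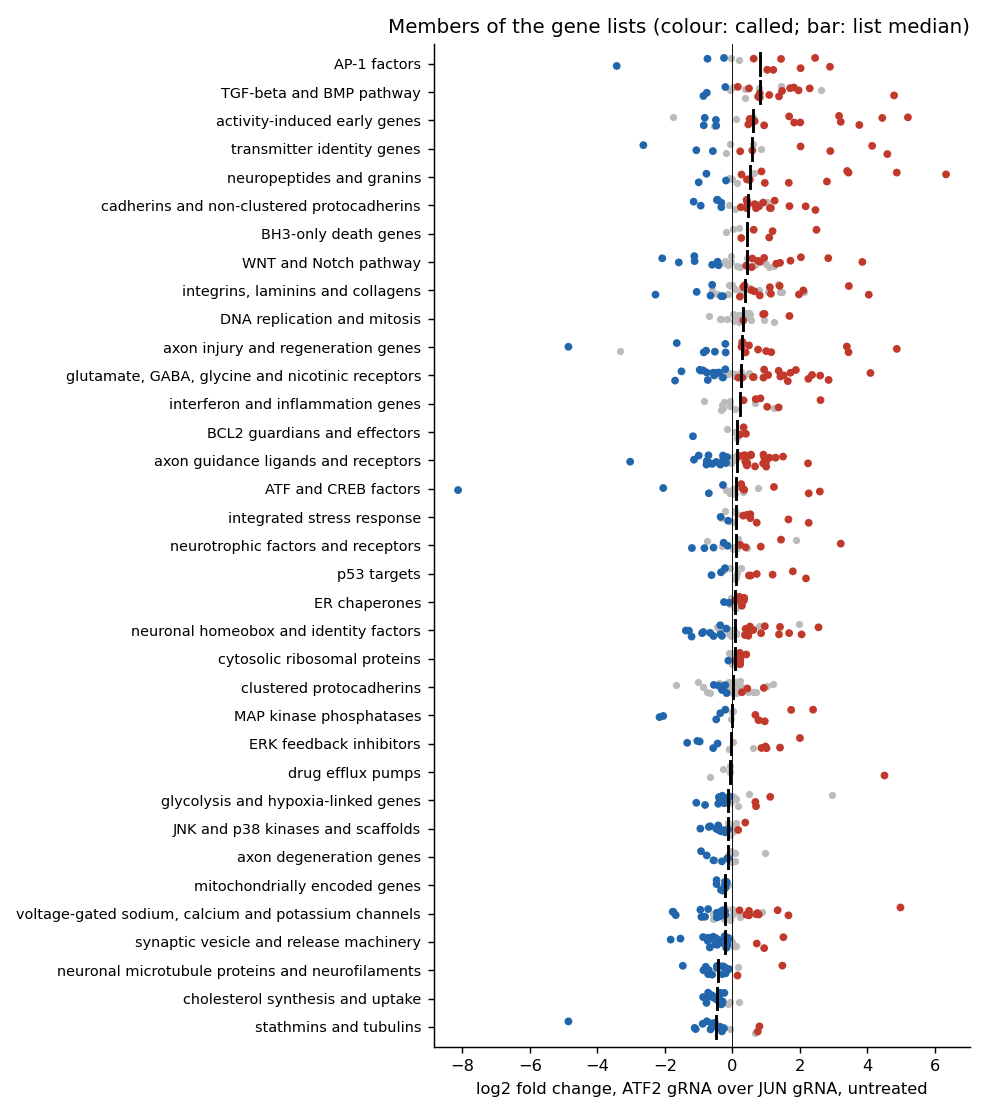
Log2 fold change (ATF2 gRNA over JUN gRNA, untreated) of every tested member of the 35 gene lists; each point is a gene, coloured where called, and the bar is the list's median. Medians run from -0.48 for stathmins and tubulins to 0.83 for AP-1 factors.

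The same contrast was measured in libraries treated with vincristine, which share none with the untreated ones. There 6786 genes (32.7%) were called, 14.0% higher, 18.7% lower and 7.43% at least 2-fold apart. Of the 3432 genes higher with ATF2 gRNA in untreated libraries, 3235 (94.3%) had the same sign and 2180 (63.5%) were called in the same direction, and of the 3783 lower genes these were 3623 (95.8%) and 2823 (74.6%). In the opposite direction 15 and 13 were called. Of the genes at least 2-fold apart, 678 of 965 higher (70.3%) and 391 of 476 lower (82.1%) were called in the same direction, with median log2 fold changes of 1.25 and -1.44 against 1.79 and -1.46 in untreated libraries.

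With vincristine the log2 fold change was 6.19 for SST, 4.06 for SLC32A1, 4.93 for GAD2, 3.65 for RGS4 and -5.48 for NINL, each called in the same direction as without the drug, and for none of these 5 genes was the change with the drug called. Among the other genes named by size, that change was called for NPFFR2, KRT8, PPL, TNC, HEYL, STMN4 and SH2D3C. For 587 genes (2.83%) the difference between lines itself changed with the drug, upward in 0.910%, downward in 1.92% and by at least 2-fold in 0.419%, among them 157 of the 1441 at least 2-fold apart, smaller with vincristine in 116 and larger in 41. These 1441 genes were chosen for a large untreated difference, and that choice alone favours smaller values in other libraries, so neither this split nor the medians above are read as an effect of the drug. EGR1 went from 3.76 to 1.26 (interaction -2.50, edgeR adjusted p = 7.01e-12), with JUN gRNA means of 39.5 CPM without the drug and 298 with it. JUN went from 2.89 to 1.66 (interaction -1.23, edgeR adjusted p = 3.07e-05). HRK changed side, from 0.26 to -0.63 (edgeR adjusted p = 1.26e-11), as did ATF3, from 0.30 to -0.63 (edgeR adjusted p = 1.13e-08), and DUSP16 went from -2.05 to -3.34 (edgeR adjusted p = 1.27e-10). With vincristine the interferon list had 6 genes higher and 0 lower, the cholesterol list 1 higher and 15 lower, and the stathmins and tubulins 2 higher and 12 lower. Not every list kept its balance. The axon injury list had 6 higher and 10 lower (median -0.24) in place of 11 higher and 7 lower (median 0.29). The BH3-only list had 4 higher and 2 lower in place of 5 and 0. The AP-1 list had 4 higher and 2 lower of 12, with a median of 0.12 in place of 0.83.

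**Figure D5:**
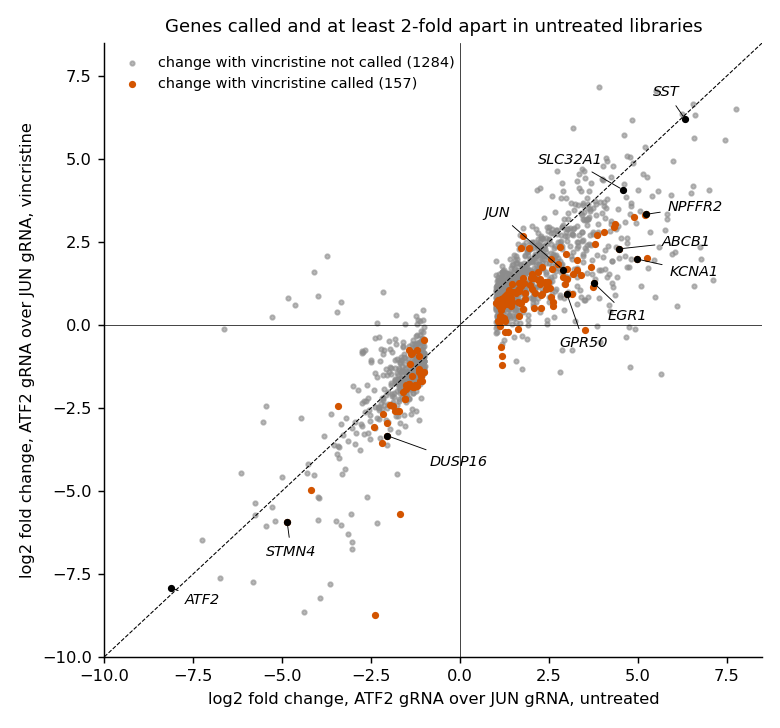
Log2 fold change (ATF2 gRNA over JUN gRNA) in untreated libraries (x) and in vincristine libraries (y) for the 1441 genes called and at least 2-fold apart in the former; the dashed line marks equal values. The 157 genes whose difference changed with the drug are orange, except that labelled genes are black; SST lies near the line, and EGR1, GPR50 and KCNA1 below it.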

How the data were processed

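RNA was measured by sequencing of poly(A)-selected, stranded libraries as read pairs, per the labels' protocols. The authors deposited raw counts per gene. Per the submitters' processing notes, cutadapt 3.4, STAR, featureCounts of Subread 2.0.1 and GRCh38 were used; the header of the deposited counts shows that duplicates were marked. Whether those were counted, and the strand setting, are not given in the sources used here, and 56 of the 131 genes described have spans that overlap another tested gene. Of 58440 gene identifiers 56992 had the same version and start in GENCODE 29, and 58320 were matched to a symbol.

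All 29 libraries of the gRNA experiment (6 groups) were fitted together with the quasi-likelihood test of edgeR 4.0.16 in R 4.3.3 (robust, filterByExpr, TMM factors, 1 mean per group). Tests are 2-sided, adjusted by Benjamini and Hochberg over 20759 genes, and genes are called under 0.05. The standard error (SE) is the size of the log2 fold change over the square root of F. SD is between libraries.

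Named are the targets; the 12 highest and 12 lowest protein-coding called genes, provided that their libraries do not overlap and their log2 CPM averages at least 1; the 6 most abundant called genes at least 2-fold apart in each direction; per list up to 3 called genes in each direction and its first 3 genes; and genes starting within 100 kb of a target. Of these, the genes described were selected afterwards. The members, the 35 gene lists and the 9 marker lists were chosen with earlier results of these data known.

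Alternatives were DESeq2 1.42.0, RLE and upper quartile factors, filtering by an average of 1 CPM or not at all, a block for the replicate number, only the groups compared, voom of limma 3.58.1 with sample quality weights, and leaving out each library. The fit was tested on simulated data. Tables were handled with data.table (1.17.8), pandas 2.3.3 and scipy 1.17.1 in Python 3.11.15, which drew the plots through matplotlib 3.10.9. The spread between libraries, not counting error, limits most values.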

Additional observations from a re-analysis of the deposited data

Results flagged for a closer look

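Each of 131 genes described above was tested in both groups of 5 for an outlying library. The gap to the nearest other library, divided by the range of the 5, had to exceed Dixon's 95% critical value. By chance about 1 of 20 groups exceeds it. Of the 262 groups 17 did, a share near that rate. ATF2 gRNA replicate 1 stood out for MYSM1 37.7 CPM (others 53.5 to 56.9), ATF7 26.3 CPM (others 31.9 to 33.1), DDIT3 130 CPM (others 106 to 113), CDKN1A 73.9 CPM (others 66.2 to 67.8), GABRB2 0.340 CPM (others 1.78 to 2.09) and LAMA4 2.18 CPM (others 3.85 to 4.28). ATF2 gRNA replicate 3 stood out for JUND 46.3 CPM (others 54.8 to 57.3). ATF2 gRNA replicate 4 stood out for MT-ATP6 2507 CPM (others 2070 to 2193). JUN gRNA replicate 3 stood out for BTG2 42.7 CPM (others 36.7 to 38.2), ETV5 29.0 CPM (others 26.8 to 27.1), GRIN2A 10.8 CPM (others 12.6 to 13.1), DPYSL3 1609 CPM (others 1688 to 1706) and NINL 52.6 CPM (others 54.9 to 55.7). JUN gRNA replicate 4 stood out for SEMA3C 17.6 CPM (others 14.6 to 15.0). JUN gRNA replicate 5 stood out for ATF3 18.0 CPM (others 20.7 to 21.6), GABRB2 0.635 CPM (others 0.125 to 0.262) and IRF1 0.834 CPM (others 0.303 to 0.437). ATF2 gRNA replicate 1, which also stood apart on the component axes, held 6 of these values and JUN gRNA replicate 3 held 5.

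For 41 of the 131 genes the difference between ATF2 gRNA and JUN gRNA itself changed with vincristine (edgeR interaction term, Benjamini-Hochberg adjusted over all genes). Over all genes tested this held for 587 of 20759 (2.83%). The 131 genes were named largely by their untreated difference, so the 2 shares are not alike in selection. That choice alone also favours smaller values in other libraries, so the directions below are not read as an effect of the drug. The changes below are log2 differences of the vincristine contrast from the untreated contrast. A positive untreated difference was smaller with vincristine, with the same sign, for JUN (-1.23), ATF5 (-0.91), DDIT3 (-1.04), EGR1 (-2.50), EGR2 (-1.89), PHLDA1 (-0.60), BBC3 (-0.57), CDKN1A (-0.60), TRIB3 (-0.41), TNFRSF12A (-1.88), KCNA1 (-3.00), TUBA4A (-0.64), UNC5B (-0.86), TNC (-1.25), TGFB1 (-0.55), HEYL (-1.14), ABCB1 (-2.19), NPFFR2 (-1.89), KRT8 (-1.30), PPL (-1.37), ASS1 (-0.23) and GPR50 (-2.07). A positive untreated difference turned negative for ATF3 (-0.94) and HRK (-0.89). A positive untreated difference was larger for NEFM (0.34). A negative untreated difference was larger in size for JUND (-0.63), CREB5 (-0.91), BTG2 (-0.55), DUSP8 (-0.51), DUSP16 (-1.29), STMN4 (-1.09), SLC18A2 (-0.62), SYN3 (-0.70), TUBA1A (-0.56), TUBB2B (-0.46), SH2D3C (-0.65) and SEZ6L (-0.35). A negative untreated difference was smaller in size for ATP5MC3 (0.25), MAFF (0.99) and ETV5 (0.49). For ATF4 the untreated difference was not called (-0.06, edgeR adjusted p = 0.207), and the value with vincristine was 0.14 (change 0.20).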

How the results depend on the processing

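Of the 129 genes described that were called, 126 kept their direction and call in every alternative run of 18; the exceptions were MYSM1, BATF3 and SYN1, whose log2 fold changes kept their sign. Leaving out each library gave 6687 to 6968 genes called between ATF2 gRNA and JUN gRNA, 3111 to 3323 higher, 3495 to 3645 lower and 1348 to 1421 at least 2-fold apart; DESeq2 called 7624 and voom 8846. With a filter at a mean of 1 CPM, which removes low genes, 941 were at least 2-fold apart. For JUN gRNA against Control gRNA the range was 1627 to 2659, with 758 to 1520 higher (758 without JUN gRNA replicate 4 and 767 without Control gRNA replicate 2, in place of 1199) and 860 to 1139 lower; for ATF2 gRNA against Control gRNA, 7717 to 8184; for the vincristine contrast, 6299 to 6543; for its difference from the untreated one, 463 to 643. That difference had 309 genes called higher by DESeq2 and 262 called lower when only the groups compared were fitted, against 189 and 398; the cause was not tested. Among genes at least 2-fold apart in place of all called genes, the promoter shares of higher and lower genes were 1.71% and 6.10% for the cAMP response element. For the AP-1 site they were 5.80% (34 of 586, exact 95% binomial interval 4.05% to 8.01%) and 4.75% (14 of 295, 2.62% to 7.83%). For TGACATCA they were 2.22% (13 of 586, 1.19% to 3.76%) and 3.73% (11 of 295, 1.88% to 6.57%). For TTACCTCA the share of lower genes was 1.02% (3 of 295, 0.210% to 2.94%). The intervals for TGACATCA and TTACCTCA hold the shares of all called genes in the same direction, so no shift is read from them.

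Deviations of ATF2 gRNA and JUN gRNA libraries of the same number correlated at -0.0138 to 0.0105, and 1 of 5 libraries was closest to its own number. No pairing by number was seen, but such correlations cannot exclude that libraries of the same number were handled together. With the replicate block 7077 genes were called. Genes at a few counts per library, such as BATF3, are limited by depth.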

Other observations

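At some genes it was the JUN gRNA mean, more than the ATF2 gRNA mean, that lay away from Control gRNA. GAL and TNC differed between JUN gRNA and Control gRNA by log2 fold changes of -3.99 and -3.62, while their values with ATF2 gRNA were 0.89 and 0.42. RPH3A and PCDH8 were higher with JUN gRNA than with Control gRNA, by 0.81 and 0.80, and their log2 fold changes with ATF2 gRNA were -0.06 and -0.34. These comparisons share libraries, and the 4 genes were picked after their values were seen.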
